A study of Mus musculus with 18 samples.

Results

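MEFs, which are fibroblasts cultured from mouse embryos, were kept for 24 h in growth medium with vehicle (control, 0 µM) or with 10 µM uracil, and total RNA was sequenced. The comparison described here sets 4 libraries at 10 µM against the 4 control libraries that carry the same replicate number in the labels, 2 to 5, so 8 of the 18 libraries of the series entered it. Numbers 1 and 6 were left out because over 5% of read pairs were unaligned in 1 of the 2 libraries of each pair, which were control number 1 with 54.2% and 10 µM number 6 with 5.24%. The study's methods state that a vehicle sample and a sample of the higher dose were dropped for contamination with human RNA, and the labels do not say which samples these were. The remaining libraries of the series were the 30 µM dose, which is given only where values are set side by side, and of these number 6 had 37.9% of pairs unaligned. Both groups received the same medium with serum, glutamine and antibiotics, and uracil was the only stated difference. The study's methods call the numbers biological replicates. The labels name no strain, embryo, passage or immortalisation of the cells, so whether numbers are separate isolations or separate cultures of 1 isolation is unknown.

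Uridine phosphorylase-1 (UPP1) splits the nucleoside uridine and sets free its base, uracil. Mammalian cells build most pyrimidines through UMP, made de novo or salvaged from uridine by uridine kinases, and they degrade uracil through dihydropyrimidine dehydrogenase. Fibroblasts assemble the extracellular matrix, and fibronectin is drawn into fibrils by its receptor, the α5β1 integrin, which is taken up and returned to the cell surface through recycling endosomes. The question put to these libraries was whether uracil alters the transcripts of fibronectin or of this receptor.

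The 8 libraries held 12.2 to 20.8 M read pairs assigned to genes, and 1.91% to 3.09% of their pairs were unaligned. All 12 fibroblast markers examined had counts, and their summed level was 26850 to 29906 CPM (counts scaled to a common library size) in control and 26109 to 28456 CPM at 10 µM. Col1a1, Col1a2 and Vim made up most of it, whereas Fap had at most 10 counts in every library. Markers of other cell types summed to 151 to 408 CPM for mesothelial or epithelial cells, 7.88 to 12.4 CPM for endothelial cells, 1.80 to 5.96 CPM for blood cells, 18.2 to 26.5 CPM for skeletal muscle and 28.4 to 45.3 CPM for neural or glial cells. In each of these 5 lists the range at 10 µM overlapped that in control. Bulk RNA cannot tell fewer cells of a type from less RNA per cell.

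No transcript was called changed by 10 µM uracil. Of 55487 genes in the table, 13759 had enough counts to be tested, and 0 (0%) passed an adjusted p of 0.05 in edgeR's quasi-likelihood test with the replicate number as a block. The smallest adjusted p was 0.867. At an unadjusted p under 0.05 there were 774 genes (5.63%), of which 293 (2.13%) were higher and 481 (3.5%) lower at 10 µM. This split turned round with the scaling, since with library totals alone 422 genes were higher and 374 lower. DESeq2 also called 0 genes and had 65 at an unadjusted p under 0.05. The 10 µM library was above its own control in every number for 889 genes (6.46%) and below it in every number for 923 genes (6.71%). The count of 0 depended on the filter on low counts and on number 4. With no filter 29 genes passed, and 22 of these were among the 13759. Without number 4, 35 genes passed, all of them lower at 10 µM. Of the 35, 31 went the other way within number 4, which their choice by leaving it out favours. They included Hspg2 (perlecan, a basement membrane proteoglycan), Lrp1 (an endocytic receptor), Tns1 (tensin-1, which links integrins to actin) and Trp53 (p53), named after their values were seen. Leaving out numbers 2, 3 or 5 in turn gave 0 genes.

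The fitted changes were small in size. The median absolute log2 fold change was 0.049, with 6486 genes higher and 7273 lower. Only 61 genes had a fitted change beyond 1.5-fold and 3 beyond 2-fold, and 16 of the 61 had a mean level of at least 1 CPM. Among the 9389 genes at 10 CPM or more, 33 had a fitted change beyond 1.2-fold.

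**Figure D1:**
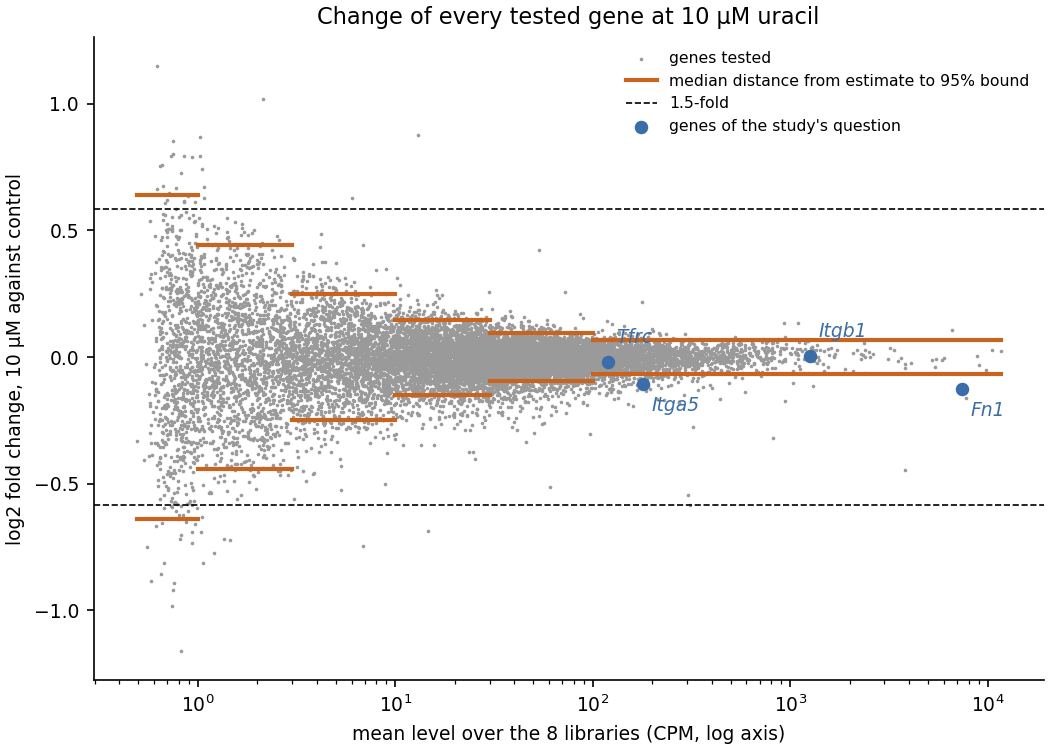
Log2 fold change at 10 µM against control (vertical axis) by mean level in CPM over the 8 libraries (horizontal, log axis), 1 grey point per gene tested. Orange bars give the median distance from the estimate to the bound of its 95% interval in 6 ranges of level, which narrows from 0.64 under 1 CPM to 0.069 at 100 CPM and over, and the dashed lines mark 1.5-fold. Fn1, Itga5, Itgb1 and Tfrc lie close to 0.

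How large a change the libraries exclude was read from the 95% interval of each gene's fold change, since a count of calls cannot give it. The typical interval reached 1.10-fold to either side of the estimate. For 12040 genes (87.5%) the whole interval lay within 1.5-fold in either direction, so that a larger rise or fall lay outside it. The share was 65.1% (8956 genes) for 1.2-fold, 98% (13479 genes) for 2-fold and 99.9% (13741 genes) for 3-fold. Equivalence tests against the same limits, adjusted over all genes, passed for 67%, 90.3%, 98.9% and 99.9% of genes at 1.2-, 1.5-, 2- and 3-fold. Intervals that hold for all 13759 genes at once were wider, and lay within 1.5-fold for 62% and within 2-fold for 78.5%. From the other side, 5 genes had an interval that began beyond 1.2-fold and 0 had one that began beyond 1.5-fold.

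Precision followed the level of the gene. Of the 2131 genes at 100 CPM and over, with a median of 2606 counts per library, 97.6% had their interval within 1.2-fold. The share was 96.4% at 30 to 100 CPM, 81.7% at 10 to 30 CPM, 17.3% at 3 to 10 CPM and 0% under 3 CPM. Among the 748 genes under 1 CPM, whose median was 12.4 counts per library, 0.668% stayed within 1.5-fold and 70.7% within 2-fold. For nearly all of these a 1.5-fold change was thus not excluded at this depth. Another 13404 genes had some counts but too few to be tested, and 28324 had none in the 8 libraries, and the shares above do not cover them.

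**Figure D2:**
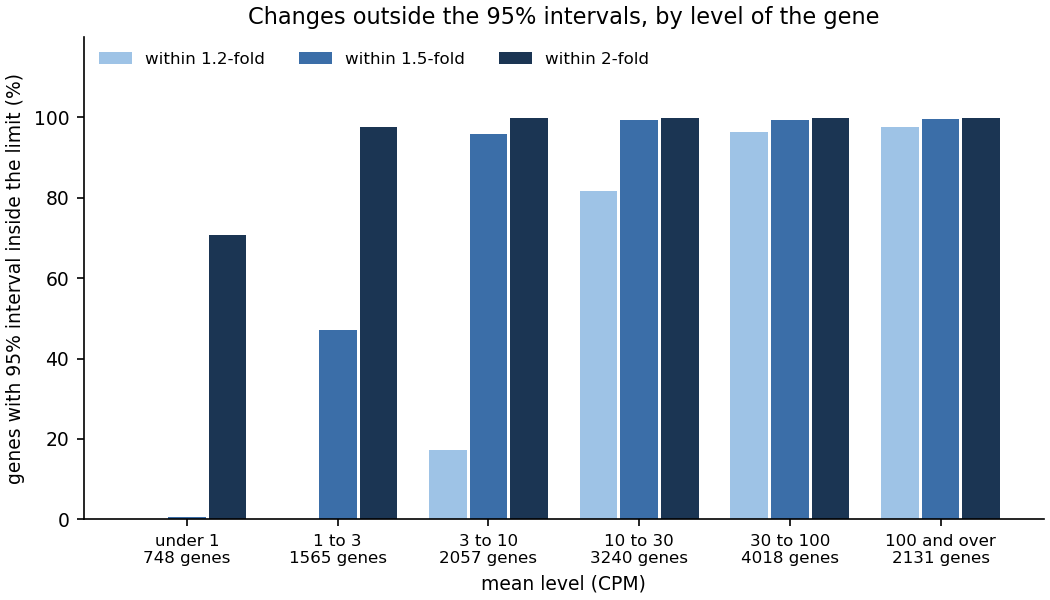
Share of genes (%) whose 95% interval lies wholly within 1.2-, 1.5- or 2-fold of no change, in 6 ranges of mean level in CPM, with the number of genes in each. From 10 CPM upward at least 99.2% of genes lie within 1.5-fold, against 0.668% under 1 CPM.

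A few genes above 1 CPM had wide intervals, with libraries that differed within a group, and these were picked out after their values were seen. The ribosomal RNA gene mt-Rnr1, encoded by the mitochondrial genome, had 457.9, 558.7, 120.2 and 408.3 CPM in control numbers 2 to 5 and 267.1, 177.4, 181.6 and 325.4 CPM at 10 µM. Control number 4 was below all of the 10 µM libraries and the other 3 controls were above all of them, and the interval reached 2.55-fold to either side. The library kit depletes ribosomal RNA, and the part of depletion in these values was not tested. Prss2, a pancreatic trypsinogen, had 20.4 CPM in 10 µM number 2 and 12.5 CPM in control number 3, against 0.324 to 1.26 CPM in the other 6 libraries. Cela1, a pancreatic elastase, followed the same pattern with 26.5 and 14.6 CPM against 1.25 to 2.79 CPM. For these genes the 8 libraries exclude little.

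Fibronectin and its receptor were the transcripts the study followed. Fn1 (ENSMUSG00000026193), which encodes fibronectin, lies on the minus strand of chromosome 1 (GRCm39, 71624673 to 71692419), with the non-coding Apol7d on the opposite strand. Its level in control numbers 2 to 5 was 7885, 9486, 6474 and 7122 CPM, and at 10 µM it was 7252, 7314, 6721 and 6802 CPM. The groups overlapped, and control number 3 was the highest of the 8. The means were 7742 ± 1298 CPM and 7022 ± 304 CPM (SD, n = 4 each), and the log2 fold change was −0.13 ± 0.087 (SE, 95% interval −0.39 to 0.14, edgeR adjusted p 0.891), with 1 of 4 numbers higher. A rise beyond 1.10-fold and a fall to less than 0.763 of control thus lay outside the interval. Without number 3 the log2 fold change was −0.044.

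Itga5 (ENSMUSG00000000555) encodes the α5 chain that pairs with β1 to bind fibronectin, and lies on the minus strand of chromosome 15 (103252713 to 103275270), where Mir6963, a microRNA gene, is nested in it. Control numbers 2 to 5 had 215.9, 231.1, 159.8 and 137.7 CPM and the 10 µM libraries 201.1, 189.3, 158.0 and 138.9 CPM. Numbers 2 and 3 were high in both groups and numbers 4 and 5 low, so the groups overlapped while most of the spread was shared within a number. The log2 fold change was −0.11 ± 0.043 (SE, interval −0.20 to −0.014, edgeR unadjusted p 0.0274, adjusted p 0.867), and 1 of 4 numbers was higher. A fall below 0.872 of control and any rise lay outside this interval, which is not adjusted for the number of genes tested. The adjusted test did not call a change, number 5 was slightly higher at 10 µM, and without number 3 the value was −0.041.

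Itgb1 (ENSMUSG00000025809, plus strand of chromosome 8, 129411876 to 129460618) encodes the β1 chain shared by many integrins. It had 1360, 1369, 1211 and 1103 CPM in control and 1376, 1346, 1196 and 1142 CPM at 10 µM, in the order of the numbers. The 2 libraries of each number lay close together and the groups overlapped. The log2 fold change was 0.0060 ± 0.026 (SE, interval −0.047 to 0.059, edgeR adjusted p 0.987), and changes beyond 0.968- and 1.04-fold lay outside the interval.

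Tfrc (ENSMUSG00000022797, plus strand of chromosome 16, 32427556 to 32451612, with the non-coding Gm60415 on the opposite strand) encodes the transferrin receptor, a standard cargo of recycling endosomes. Levels were 119.7, 119.3, 124.9 and 118.0 CPM in control and 120.5, 125.3, 109.6 and 119.4 CPM at 10 µM. The 10 µM library was higher in 3 of 4 numbers and lower in number 4. The log2 fold change was −0.019 ± 0.039 (SE, interval −0.099 to 0.062, edgeR adjusted p 0.960), which corresponds to 0.934- to 1.04-fold. For these 4 genes the exact permutation of the signs of the differences within numbers, two-sided, allows no p below 0.125, and its adjusted values were 0.5 to 1.

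**Figure D3:**
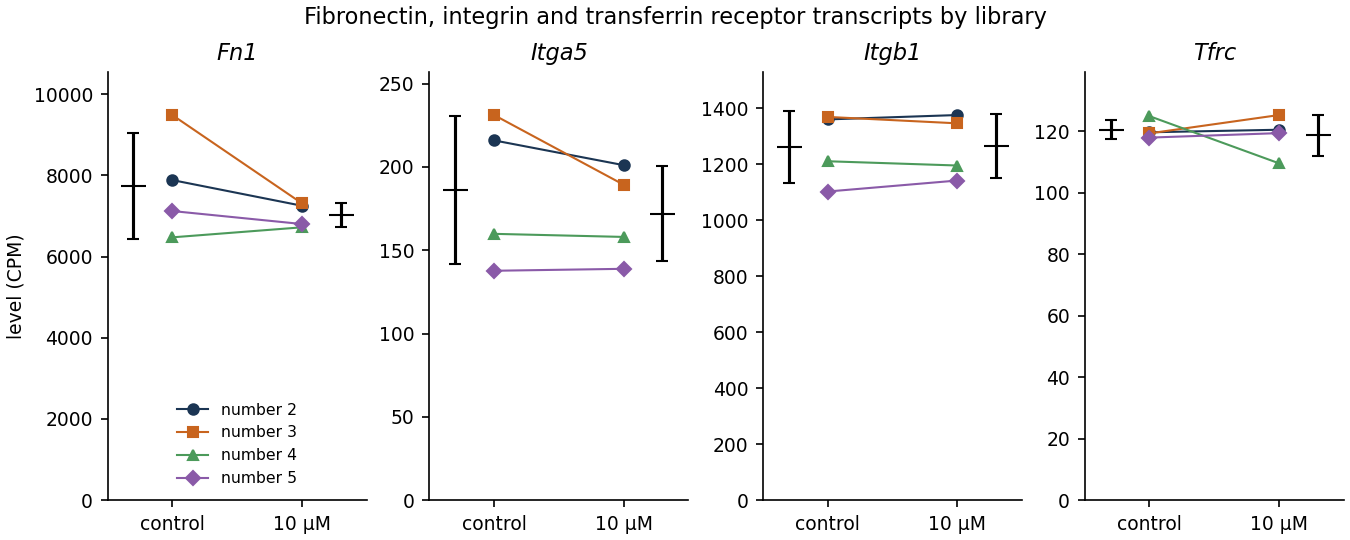
Level in CPM (vertical axis, from 0) of Fn1, Itga5, Itgb1 and Tfrc in control and at 10 µM uracil, with a line joining the 2 libraries of each replicate number. Black bars give the group mean and SD (n = 4). Lines run nearly level except for number 3 in Fn1 and Itga5 and number 4 in Tfrc.

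Upp1 (ENSMUSG00000020407, plus strand of chromosome 11, 9067953 to 9086370), which encodes the enzyme that forms uracil, had too few counts to be tested. Counts in control numbers 2 to 5 were 6, 20, 7 and 6, and at 10 µM they were 9, 16, 4 and 5, with totals of 39 and 34. Number 3 was high in both groups. With no filter on low counts the log2 fold change was −0.0071 ± 0.38 (SE), and the interval of 0.593- to 1.67-fold leaves a 1.5-fold rise or fall inside it.

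The 30 µM libraries of numbers 2 to 5 share these controls, so their values stand beside those at 10 µM and are no second test. Against control, the log2 fold change at 30 µM was −0.12 ± 0.069 (SE) for Fn1, −0.058 ± 0.047 for Itga5, −0.0063 ± 0.035 for Itgb1 and −0.033 ± 0.051 for Tfrc.

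Numbers 1 and 6, which were not in the fit, gave differences further from 0 for Fn1 and Itga5 than any inside it. In number 1, Fn1 was −1.28 and Itga5 −1.55 (log2 difference, 10 µM minus control), and in number 6 they were 0.89 and 0.63. Itgb1 was −0.092 and 0.025, and Tfrc was −0.46 and 0.026, against −0.19 to 0.070 in numbers 2 to 5. The library with more unaligned pairs was the control in number 1 and the 10 µM library in number 6, and it was the higher of the pair for Fn1 and Itga5 both times. The samples dropped for human RNA were of the vehicle and of the higher dose, so the lower-dose library of number 6 was not among them. Control number 1 had the highest unaligned share of the controls, and whether it was the dropped vehicle sample is not given. The part of contamination or alignment in these differences was not tested.

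Genes with the smallest p were then described, although none passed. Among the 10 higher genes, Ndufv2 encodes a subunit of respiratory complex I. It had 76.1, 75.1, 87.2 and 87.2 CPM in control numbers 2 to 5 and 82.2, 93.9, 99.2 and 90.1 CPM at 10 µM. Each 10 µM library exceeded its own control, while the groups overlapped. Its log2 fold change was 0.17 ± 0.042 (SE, interval 0.082 to 0.26, edgeR unadjusted p 0.000608, adjusted p 0.867). Ndufb4, another subunit of complex I, had 24.9, 27.5, 25.6 and 23.8 CPM in control and 27.9, 31.6, 29.2 and 27.5 CPM at 10 µM. Here every 10 µM library lay above every control, narrowly, with a log2 fold change of 0.19 ± 0.055 (SE). Groups that did not overlap were found in 1.27% of all genes tested, and the genes described here were chosen by their small p, so nothing is read from it. Atp5if1, an inhibitor of ATP synthase, was at 0.14 ± 0.036 and Slirp, which stabilises mitochondrial messenger RNA, at 0.18 ± 0.053.

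The remaining higher genes had other roles. Manf, a secreted factor of the endoplasmic reticulum stress response, was at 0.13 ± 0.034 (log2 fold change ± SE) and Rrn3, an initiation factor of RNA polymerase I, at 0.12 ± 0.033. Cftr, a chloride channel, had the highest fitted value of the 10 and the lowest level, with 3.40, 3.43, 3.69 and 3.52 CPM in control and 4.92, 4.60, 4.38 and 5.76 CPM at 10 µM. Its groups did not overlap, and the log2 fold change was 0.49 ± 0.13 (SE, interval 1.15- to 1.70-fold) on 45 to 83 counts per library. Gtdc1, a glycosyltransferase-like gene, was at 0.35 ± 0.097, Rasl11a, a small GTPase of the Ras family, at 0.25 ± 0.070, and the processed pseudogene Gm14253 at 0.31 ± 0.090. A pseudogene can share reads with its parent gene, which leaves the last value uncertain.

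On the lower side, Ltbp4 had the smallest p of all. It encodes a matrix protein that binds latent TGF-β and lies on chromosome 7 (27004086 to 27037117, minus strand), overlapped by 3 non-coding genes on the opposite strand. Levels were 50.0, 56.9, 55.9 and 66.8 CPM in control and 42.1, 44.1, 53.4 and 56.7 CPM at 10 µM. All 4 numbers were lower at 10 µM, number 4 least, and the groups overlapped. The log2 fold change was −0.23 ± 0.048 (SE, interval 0.793- to 0.912-fold, edgeR unadjusted p 7.91e-05, adjusted p 0.867).

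Elf4, an ETS transcription factor, had 30.4, 35.2, 25.4 and 31.6 CPM in control and 25.3, 25.5, 24.8 and 26.0 CPM at 10 µM, with a log2 fold change of −0.28 ± 0.063 (SE). Arhgef1, an exchange factor for the GTPase RhoA, had 67.8, 67.9, 48.5 and 63.6 CPM in control and 56.1, 48.9, 48.0 and 54.1 CPM at 10 µM, at −0.26 ± 0.057. Both pairs of number 4 were nearly level, with differences of −0.037 for Elf4 and −0.015 for Arhgef1. Pcnx3, a membrane protein, showed the same with −0.0037 in number 4 against −0.19 to −0.26 in the others, and its groups did not overlap. These 3 genes and Ltbp4 were among the 35 that passed without number 4.

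Mab21l1, a developmental gene, had the lowest fitted value of the 10, at −0.52 ± 0.12 (log2 fold change ± SE), with 4.38, 6.37, 5.57 and 8.77 CPM in control and 3.55, 4.47, 3.17 and 6.11 CPM at 10 µM. Its reads may include some of Nbea, on whose opposite strand it lies. Cherp, linked to splicing, was at −0.35 ± 0.086, Acd, the TPP1 subunit of the telomere-capping shelterin complex, at −0.26 ± 0.068, and Phf2, a histone demethylase, at −0.17 ± 0.045. Cbx6, a Polycomb protein, and Cep170b, a microtubule-binding protein, were both at −0.13 ± 0.034.

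**Figure D4:**
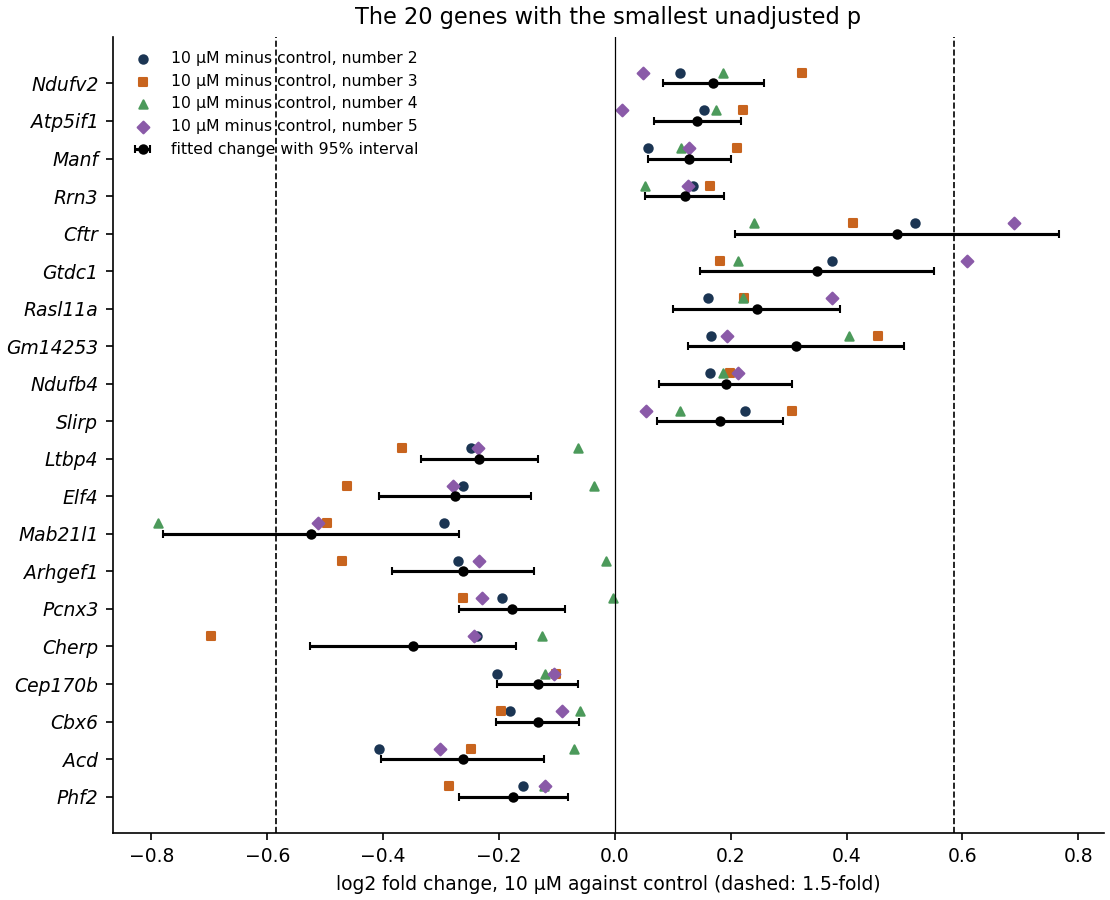
Log2 fold change at 10 µM against control (horizontal axis) of the 10 higher and 10 lower genes with the smallest unadjusted p. Black points and bars give the fitted change and its 95% interval, coloured symbols the difference within each replicate number, and dashed lines 1.5-fold. All symbols of a gene lie on 1 side of 0, those of number 3 often furthest out, and those of number 4 close to 0 for Elf4, Arhgef1 and Pcnx3.

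The library with more unaligned pairs was the control in numbers 2, 3 and 5 and the 10 µM library in number 4. Shares were 2.23% in control and 1.91% at 10 µM in number 2, 3.09% and 2.21% in number 3, 1.96% and 2.46% in number 4, and 2.94% and 2.32% in number 5. The 481 genes lower at an unadjusted p under 0.05 had a median log2 difference of −0.15, −0.24, −0.063 and −0.13 in numbers 2 to 5, and −0.58 and 0.22 in numbers 1 and 6, so that in every number except 4 they were higher in the library with more unaligned pairs. Numbers 2 to 5 had chosen these genes, and numbers 1 and 6 had not. Of the 774 genes at an unadjusted p under 0.05, 591 (76.4%) kept their direction in number 1, against 59.7% of all genes, and 182 (23.5%) kept it in number 6, against 39.9% of all genes.

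To show this per gene, the log2 differences of numbers 1 and 6 were averaged as the library with many unaligned pairs minus its partner. In the 3029 genes where this average exceeded 0.3, 9.01% were lower at 10 µM at an unadjusted p under 0.05 and 0.561% higher, whereas in the 2636 genes at −0.3 or below, 1.29% were lower and 3.6% higher. Across the 9389 genes at 10 CPM or more, the correlation of this average with the difference inside a number was −0.22 in number 2, −0.62 in number 3, 0.16 in number 4 and −0.030 in number 5. These are correlations across genes of 1 pair of libraries each, given as a description. Of the 35 genes called without number 4, 29 had an average above 0.3, against 3029 of all 13759 genes. The part of unaligned reads in the results was not tested, beyond a fit with their share as a covariate in the closing section.

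Gene lists written from general knowledge were followed for the processes that the study discusses. No member of any list passed the adjusted test, so each list is described by its counts and median, beside the median of all 13759 genes, which was −0.0050 on the log2 scale, and beside the 2.13% of all genes higher and 3.5% lower at an unadjusted p under 0.05.

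Adhesion genes were more often below 0 than above. Of 26 genes for fibronectin, its receptor and the adhesion proteins that couple it to actin, 20 were lower and 6 higher, with a median log2 fold change of −0.037. At an unadjusted p under 0.05 there were 6 lower (23.1% of the list, against 3.5% of all genes) and 0 higher: Itga5, the tensins Tns1 (−0.14), Tns2 (−0.15) and Tns3 (−0.11), Zyx (zyxin, −0.094) and Actn4 (α-actinin-4, −0.12). Actn4 had 413.8, 474.7, 390.6 and 395.6 CPM in control and 390.7, 391.0, 375.8 and 376.4 CPM at 10 µM, so each 10 µM library was below its own control, by most in number 3, while control number 4 lay just under 2 of the 10 µM libraries. The median of the list was −0.068, −0.063, 0.024 and −0.033 in numbers 2 to 5, the only positive value being that of number 4. The same genes had a median of −0.32 in number 1 and 0.15 in number 6, in each case higher in the library with many unaligned pairs. All 26 intervals lay within 1.5-fold and 22 within 1.2-fold. Among the 16 other integrin chains tested, 11 were lower and 5 higher and 0 reached an unadjusted p of 0.05. Itga1, a collagen receptor chain, was at 0.12 ± 0.076 (log2 fold change ± SE) and Itga9 at −0.16 ± 0.12.

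Collagens were below 0 in nearly every member, by a few percent at the median. Of 22 tested, 21 had a log2 fold change below 0 and 1 above, with a median of −0.051, and 10 were lower in all 4 numbers, against 6.71% of all genes. The median was −0.049, −0.074, −0.014 and −0.067 in numbers 2 to 5, and it was 0.054 in number 1 and 0.022 in number 6, where the median of all genes tested was 0.033 and 0.015. Col1a2, the α2 chain of type I collagen, had 10424, 10269, 9744 and 9367 CPM in control and 10105, 9735, 9629 and 8916 CPM at 10 µM. Each 10 µM library was below its own control by a similar small step, while the groups overlapped. The log2 fold change was −0.053 ± 0.020 (SE, interval 0.936- to 0.993-fold, edgeR unadjusted p 0.0171, adjusted p 0.867). Col1a1, its α1 partner, was less even, with 8575, 8924, 6891 and 8479 CPM in control and 7405, 6867, 7193 and 7826 CPM at 10 µM. The 10 µM library was the higher of the pair in number 4 and the lower in the others, the log2 fold change was −0.16 ± 0.088 (SE), and the interval ran from 0.742- to 1.08-fold.

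The collagen with the lowest fitted value was Col15a1, a basement-membrane-zone collagen at low level, with 8.49, 7.01, 5.24 and 3.52 CPM in control and 6.47, 4.54, 3.85 and 3.19 CPM at 10 µM. Every 10 µM library was below its own control and the groups overlapped, with a log2 fold change of −0.43 ± 0.12 (SE, edgeR unadjusted p 0.00181, adjusted p 0.867). The others at an unadjusted p under 0.05 were Col16a1 (−0.079), Col27a1 (−0.17) and Col8a1 (−0.062). Col12a1 was the single member above 0, at 0.0021 ± 0.023. In the fit with numbers 1 and 6 added, the median of the list was −0.0015.

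Other matrix genes were also more often below 0, and the intervals were narrow. Of 41 further matrix proteins, 34 were lower and 7 higher (median −0.027), with 4 lower at an unadjusted p under 0.05, which were Lama5 (laminin α5, −0.084), Ltbp3 (−0.12), Emilin1 (−0.065) and Fmod (fibromodulin, −0.094). Lum (lumican) was at 0.26 ± 0.14 on 24 to 159 counts per library. Of 31 enzymes that process the matrix, 25 were lower and 6 higher (median −0.031), and the 3 at an unadjusted p under 0.05 were P4ha2, a collagen prolyl hydroxylase (−0.10), Mmp2, a gelatinase (−0.088), and Adamts12 (−0.088). Of the 41 intervals, 39 lay within 1.5-fold, and of the 31, 29.

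Genes of endosomal recycling were balanced, with 23 higher and 27 lower of 50 and a median of −0.0032. Only Rab11b, a GTPase of recycling endosomes, had an unadjusted p under 0.05. It had 49.7, 50.1, 46.8 and 48.3 CPM in control and 44.7, 46.8, 42.9 and 44.3 CPM at 10 µM, and the log2 fold change was −0.13 ± 0.045 (SE). All 4 pairs were lower at 10 µM, and 10 µM number 3 reached the level of control number 4. Hax1, an adaptor protein, was at 0.080 ± 0.047. All 50 intervals lay within 1.5-fold and 47 within 1.2-fold.

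No gene of pyrimidine metabolism was called at 10 µM. Of 27 genes of salvage, transport and breakdown, 20 could be tested, 13 higher and 7 lower (median 0.022), and 0 reached an unadjusted p of 0.05. Their log2 fold changes ran from −0.41 to 0.15. Of the 20 intervals 18 lay within 1.5-fold, and those of Tymp and of the UPP1 homologue Upp2 did not. Dpyd, Dpys and Upb1, the 3 steps that degrade uracil, had too few counts to be tested, as did Upp1. Uprt, the mammalian relative of uracil phosphoribosyltransferase, had 10.6, 12.8, 10.4 and 12.2 CPM in control and 9.09, 10.96, 10.87 and 10.3 CPM at 10 µM. The pair of number 4 was slightly higher at 10 µM and the others lower, and the log2 fold change was −0.17 ± 0.086 (SE, interval 0.786- to 1.01-fold). The uridine kinases Uck1 (0.014 ± 0.058) and Uck2 (0.017 ± 0.031) and the nucleoside transporter Slc29a1 (0.0012 ± 0.034) were near 0. Nt5c3b, a nucleotidase, was at 0.083 ± 0.049.

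In de novo synthesis, 5 genes were higher and 3 lower of 8 tested, and all intervals lay within 1.2-fold. Cad, which carries out the first 3 steps, had 221.4, 245.5, 258.3 and 257.7 CPM in control and 214.5, 240.8, 257.4 and 248.6 CPM at 10 µM. Pairs differed by little and the log2 fold change was −0.033 ± 0.030 (SE). Umps, which makes UMP, was at 0.026 ± 0.038, Dhodh, the mitochondrial step, at 0.058 ± 0.068, and Ctps2, a CTP synthase, at 0.057 ± 0.046. In the list for thymidylate supply and removal of uracil from DNA, 12 genes were higher and 4 lower of 16, and 0 reached an unadjusted p of 0.05. Apex1, an endonuclease of base excision repair, was at 0.075 ± 0.040, the uracil glycosylase Ung at −0.032 ± 0.096 and the thymine glycosylase Tdg at −0.078 ± 0.094. All 16 intervals lay within 1.5-fold.

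Cell-cycle genes lay on both sides of 0. Of 40, 29 were higher and 11 lower (median 0.027), with 4 higher and 2 lower at an unadjusted p under 0.05. The 4 were the mitotic genes Cdc20 (0.099), Aurkb (0.11) and Tpx2 (0.067) and the kinase Cdk2 (0.12), and the 2 were the transcription factors Foxm1 (−0.13) and E2f1 (−0.14). Cdc20 had 122.0, 134.7, 134.4 and 132.7 CPM in control and 131.3, 153.4, 139.1 and 136.6 CPM at 10 µM. Each pair was higher at 10 µM, and only 10 µM number 2 lay within the range of the controls. Foxm1 was higher at 10 µM in 2 of 4 numbers. All 40 intervals lay within 1.5-fold and 38 within 1.2-fold.

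Stress and signalling lists had no member called. Of 22 p53 targets 11 were higher and 11 lower, with 1 at an unadjusted p under 0.05, Zmat3 (−0.18 ± 0.063). Zmat3 had 122.0 CPM in control number 3 and 72.8 to 90.4 CPM in the other 7 libraries. Of 21 genes of the integrated stress response 16 were higher and 5 lower (median 0.013), with 0 at an unadjusted p under 0.05, and Nupr1 was at 0.078 ± 0.045 and Trib3 at −0.059 ± 0.039. Of 24 immediate early genes 7 were higher and 17 lower (median −0.048), with Fosl2 (−0.084) and Jun (−0.069) at an unadjusted p under 0.05 and Junb at 0.034 ± 0.033.

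Interferon-stimulated genes were mostly too low for narrow intervals. Of 30, 20 were tested, 12 higher and 8 lower, and 13 had an interval within 1.5-fold. Ifit1 had 1.86, 0.833, 1.47 and 1.95 CPM in control and 2.18, 1.43, 1.89 and 2.71 CPM at 10 µM. Each pair was higher at 10 µM, on 17 to 39 counts per library, and the log2 fold change was 0.43 ± 0.20 (SE, edgeR unadjusted p 0.0419, adjusted p 0.867). Of 17 chemokines and cytokines 7 were higher and 10 lower, with Il11 at 0.25 ± 0.14 and Csf1 at −0.042 ± 0.029. Of 20 contractile and myofibroblast genes 11 were higher and 9 lower (median 0.0038). Acta2, smooth muscle actin and the usual marker of activated fibroblasts, had 3392, 3504, 3439 and 2956 CPM in control and 3507, 3707, 3433 and 2928 CPM at 10 µM, and its log2 fold change of 0.028 ± 0.024 had an interval of 0.986- to 1.06-fold.

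Mitochondrially encoded genes were the least even. Of 10 tested, 5 were higher and 5 lower, and the median was −0.021, −0.28, 0.092 and 0.054 in numbers 2 to 5, −1.31 in number 1 and 0.49 in number 6. Averaged over numbers 1 and 6, 8 of the 10 were higher in the library with many unaligned pairs, against 6649 of all 13759 genes. Some counts were low, with 22 to 55 per library for mt-Co2. The part of alignment or counting in these levels was not tested. mt-Nd4, a subunit of complex I, had 30.1, 55.9, 21.6 and 21.9 CPM in control and 29.5, 36.9, 19.6 and 22.5 CPM at 10 µM. Control number 3 stood above the rest. The log2 fold change was −0.23 ± 0.11 (SE, interval 0.705- to 1.03-fold), and 7 of the 10 intervals lay within 1.5-fold.

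**Figure D5:**
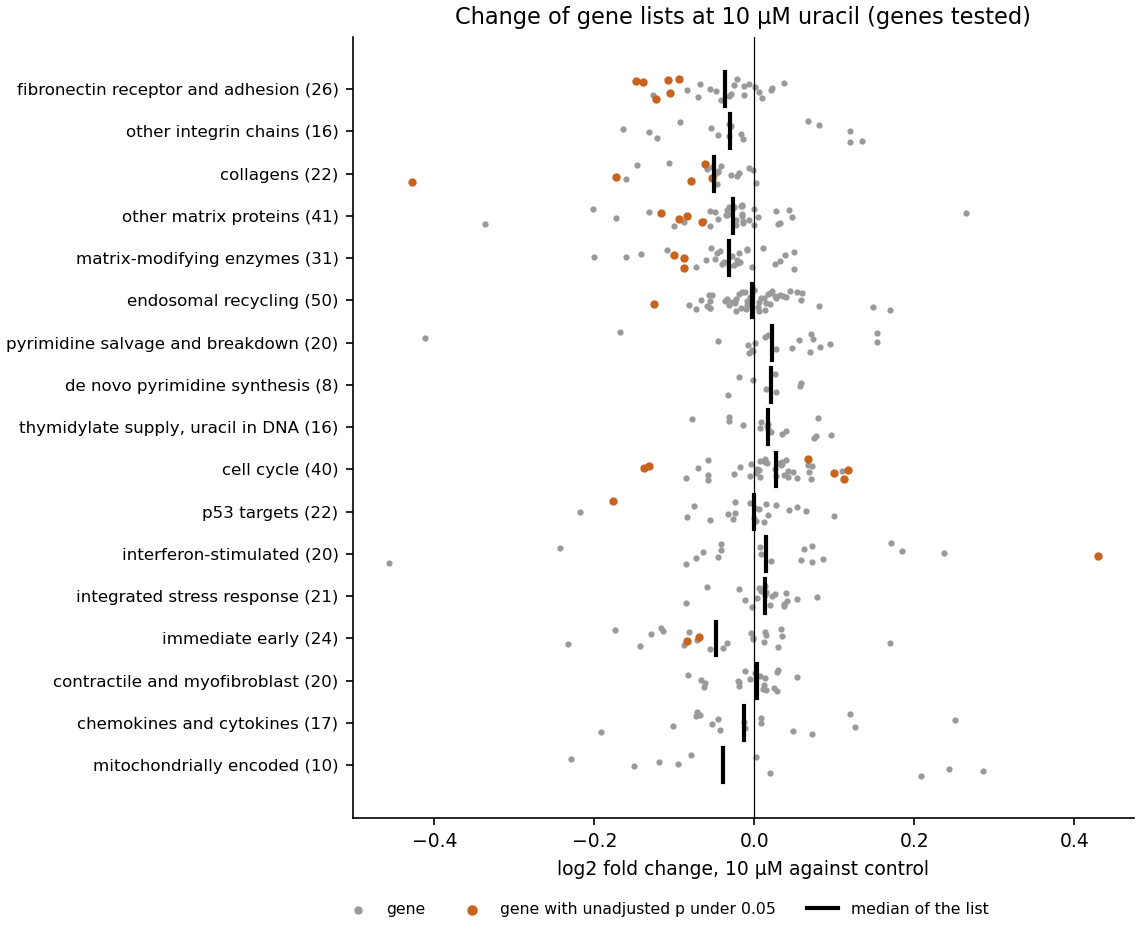
Log2 fold change at 10 µM against control (horizontal axis) of the tested members of 17 gene lists, with the number tested in brackets. Each point is a gene, orange at an unadjusted p under 0.05, and black bars give list medians. Nearly all collagens lie left of 0, at a median of −0.051, while recycling genes centre on 0 and no gene shown passed the adjusted test.

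Among the 5 most abundant transcripts the limits differed. Col1a1, given above, had the widest. Eef1a1, a translation elongation factor, averaged 11526 CPM in control and 11706 CPM at 10 µM, with an interval of 0.985- to 1.05-fold. Thbs1, thrombospondin-1, had 10773, 10459, 8274 and 6988 CPM in control and 10636, 10008, 8176 and 6848 CPM at 10 µM. The numbers differed far more than the doses, and its interval was 0.950- to 1.01-fold. Actb, β-actin, had an interval of 0.973- to 1.03-fold.

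The replicate number separated the libraries more than uracil did. Of the spread of log2 CPM over all tested genes, 68.6% lay between numbers (3 degrees of freedom), 7.86% between doses (1 degree) and 23.6% was residual (3 degrees), so per degree of freedom the dose held about as much as the residual. With dose in the model, 3322 genes (24.1%) passed the edgeR test of replicate number, and the 5 with the smallest p were Dcn, Ccn5, Upk1b, Msln and Col5a3. Upk1b and Msln mark mesothelium. Upk1b had 43.3, 48.1, 116.9 and 142.5 CPM in control and 46.3, 52.4, 119.8 and 139.5 CPM at 10 µM, so numbers 2 and 3 were low and numbers 4 and 5 high in both groups, and the log2 fold change with uracil was 0.047 ± 0.038 (SE).

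Within-number differences shared little. Across the 9389 genes at 10 CPM or more, their SD was 0.11, 0.16, 0.12 and 0.11 in numbers 2 to 5 on the log2 scale, widest in number 3, where 731 genes differed by more than 1.2-fold against 245 to 322 in the others. The correlation across genes was 0.30 between numbers 2 and 3 and −0.22 between numbers 3 and 4, and ran from −0.10 to 0.12 for the other 4 pairs of numbers. Genes are not independent replicates, so these values carry no test.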

How the data were processed

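Libraries were made from total RNA with a stranded kit that depletes ribosomal RNA, and read as paired ends. The authors deposited raw counts, whole read pairs per mouse Ensembl gene and library. The submitters' processing notes name FastQC, HISAT2, SAMtools 1.2 and HTSeq, and GRCh38, a human build, although every gene identifier is murine. The build, annotation and strand setting behind the counts are therefore uncertain, as are counts of overlapping genes and near-identical copies. The 5 closing entries for uncounted pairs entered neither library sizes nor tests (no feature 7.58% to 8.28%, ambiguous 1.50% to 1.62%, low alignment quality 5.82% to 9.43%, unaligned 1.91% to 3.09% and not unique 17.4% to 20.2% of pairs in the 8 libraries). Each of the 18 count columns was matched to 1 sample through its library name. Gene names and 1-based positions are those of GENCODE M39 (GRCm39), which may not be the build of the counts. No sequence is printed, since no gene was called.

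Titles gave the dose and the replicate number of each library. The counts of the 8 libraries were fitted with edgeR 4.0.16 in R 4.3.3 (filterByExpr, TMM, robust quasi-likelihood fit, dose plus replicate number, two-sided, Benjamini-Hochberg over all genes tested, threshold 0.05). Intervals (95%) came from the same fit, with the moderated quasi-dispersion and a t quantile on a median of 21.8 degrees of freedom, and equivalence was tested by a pair of one-sided tests with Benjamini-Hochberg adjustment. Printed CPM and differences within numbers are TMM-scaled, differences with a prior count of 2. The coefficient of biological variation was 4.02%. Scripts were tested on simulated data.

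The block pairs the libraries by number. Across genes, the deviations of the 2 libraries of a number from their group means correlated at 0.306 to 0.641 in all 4 numbers. Those of crossed pairs correlated at −0.523 to 0.423, so the ranges overlapped. Control number 3 correlated at 0.423 with the uracil library of number 2 and at 0.365 with that of its own number. The other controls correlated most with their own number. Crossed pairs within numbers 2 and 3, or within 4 and 5, were positive, and all others negative. Part of the correlation was thus shared between numbers, and pairing specific to each number was not tested. The p-values rest on the spread left after the block, that of the differences within numbers, moderated across genes. The libraries may be cultures of 1 isolation.

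The comparison, the gene lists and the tests were chosen with earlier results of these data known. Genes named were Fn1, Itga5, Itgb1, Upp1 and Tfrc, the 10 higher and 10 lower genes with the smallest p at 1 CPM or more, the member of each list with the smallest p in either direction, and the 5 most abundant; others are said to be chosen after their values were seen, or are list members at an unadjusted p under 0.05 or of a known role in pyrimidine metabolism.

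Alternatives were no block, DESeq2 1.42.0, limma 3.58.1 voom with quality weights, other size factors, library totals, no filter, at least 10 counts in every library, no robust moderation, 30 µM libraries added, numbers 1 to 6, all 18 libraries, and each number left out. A fit with the unaligned share as covariate, and another without the genes above 0.3 in the average of numbers 1 and 6, were chosen after seeing the data.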

Additional observations from a re-analysis of the deposited data

Results flagged for a closer look

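Among 156 groups of 4 libraries, the highest or lowest library stood apart from the other 3 by Dixon's ratio at its 95% critical value in 8 groups (5.13%), while chance alone gives about 1 in 20. Actb was flagged in both groups through number 5, with 8499 CPM in control against 8964 to 8982 CPM in the others, and 8297 CPM at 10 µM against 9010 to 9138 CPM. In 10 µM number 2, Lum was high at 9.90 CPM (others 2.57 to 3.69 CPM) and Cald1 (caldesmon) high at 1250 CPM (1087 to 1095 CPM). In 10 µM number 4, mt-Co2 was high at 4.15 CPM (2.43 to 2.55 CPM) and Kdr, an endothelial receptor, at 8.45 CPM (5.97 to 6.35 CPM). Cdc20 was low in control number 2 at 122 CPM (132.7 to 134.7 CPM), and Cdh1, an epithelial cadherin, was high in control number 5 at 3.45 CPM (1.47 to 1.76 CPM). Number 5 was low for Actb with and without uracil, so its difference within the number was small.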

How the results depend on the processing

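Genes passing the adjusted threshold numbered 0 under every alternative except 3. There were 29 with no filter on low counts (10 higher, 19 lower, of 27163 genes tested), 6 with the unaligned share as covariate (all higher), and 0 to 35 when 1 number was left out, the 35 being without number 4. Of the 29, 22 had also been tested in the main fit. Of list members, 1 passed with no filter (Zmat3) and 0 to 2 with 1 number left out (Tns1 and Hspg2, without number 4). Among the 10 higher and 10 lower genes with the smallest p, Ndufv2, Atp5if1, Ltbp4, Elf4, Arhgef1, Pcnx3 and Cherp also passed with no filter. The lowest adjusted p among these was 6.06e-05 (edgeR). The cause was not tested.

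Genes at an unadjusted p under 0.05 numbered 148 without the replicate block, which pairs the libraries (70 higher, 78 lower), 65 by DESeq2 (20 and 45), 1244 with no filter (563 higher), 412 with 30 µM libraries added (158 and 254), 162 with numbers 1 to 6 (94 and 68), 161 with all 18 libraries (84 and 77), and 484 without genes high in the libraries with many unaligned pairs (208 lower). With the covariate 289 were lower. Leaving out 1 number gave 474 to 1318 (172 to 494 higher, 302 to 824 lower), the lowest without number 2 and the highest without number 4.

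The share of genes with an interval within 1.5-fold was 44.5% with no filter, which adds genes with few counts, and 78.6% (DESeq2) to 93.7% under the other alternatives. In the main fit, intervals that hold for all genes at once gave 62%. Itgb1 turned to −0.0044 with numbers 1 to 6, −0.0067 with all 18 libraries and, with 1 number left out, ran from −0.0086 (without number 5) to 0.018, while Tfrc ran from −0.050 to 0.038 (without number 4). Fn1 (−0.20 to −0.044) and Itga5 (−0.28 to −0.041) stayed below 0.

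Median log2 fold changes of lists with numbers 1 to 6 and with all 18 libraries were −0.0015 and −0.0076 for collagens, −0.0030 and −0.010 for other matrix proteins, 0.017 and 0.013 for matrix enzymes, 0.015 and 0.013 for recycling, 0.050 and 0.047 for pyrimidine salvage, and 0.0092 and 0.0094 for p53 targets; contractile genes were at 0.043 with numbers 1 to 6. With library totals, other matrix proteins were at −0.018, recycling at 0.0061 and p53 targets at 0.0092. p53 targets were at 0.0073 with no filter and −0.013 to 0.0051 with 1 number left out, the lowest without number 2.

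Single genes that changed sign were Actb (−0.042 with numbers 1 to 6, −0.045 with 18 libraries, −0.0017 and −0.0043 without numbers 2 and 3, 0.016 without number 5), Eef1a1 (−0.0066, covariate), Col12a1 (−0.0026 to 0.0080 with 1 number left out, the lowest without number 2), mt-Co2 (−0.026, 18 libraries), P4ha2 (0.030 and 0.019, numbers 1 to 6 and 18 libraries), Csf1 (0.0025 and 3.6e-06, likewise), Tdg (−0.17 to 0.031 with 1 number left out, above 0 without number 3, 0.014 with the covariate), Csf1r (0.15, covariate) and Tubb3 (0.0041 by DESeq2, 0.00045 other size factors, 0.0077 totals, 0.0055 no filter, 0.00058 with 30 µM, 0.19 with numbers 1 to 6, 0.18 with 18 libraries, −0.037 to 0.058 with 1 number left out, above 0 without number 2, and 0.022 with the covariate).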

Other observations

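With no filter on low counts, 5 of the called genes are abundant in liver: Alb (albumin), Hp (haptoglobin), Hpx (haemopexin), Ahsg (fetuin-A) and Mat1a (methionine adenosyltransferase). Most of their counts came from 1 library. In 10 µM number 2 Alb had 288 counts, against 0 to 4 in the other 7 libraries, Hp had 65 against 0 to 2, Hpx 58 against 1 to 11, Ahsg 35 against 0 to 2, and Mat1a 28 against 0 to 1. The same library held the highest levels of the pancreatic genes Prss2 and Cela1 and of Trf (transferrin, 8.03 CPM against 0.324 to 3.00 CPM) and Apoe (apolipoprotein E, 11.3 CPM against 0.625 to 4.93 CPM). In the other direction, Ctse (cathepsin E) had 33, 29 and 13 counts in control numbers 2 and 3 and in 10 µM number 2, and 0 in the other 5. These genes were picked out after their values were seen, and none passes the filter except Prss2, Cela1, Trf and Apoe, whose adjusted p was not under the threshold.

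With the unaligned share as a covariate, the 6 genes that passed were all higher at 10 µM. Of these 4 encode small non-coding RNAs, namely Rny1 and Rny3 (Y RNAs), Rnu12 (a spliceosomal RNA) and Snord118 (a small nucleolar RNA), and 2 have no name in the annotation. Rny3 had a log2 fold change of 0.39 in that fit (edgeR adjusted p 1.66e-05) and 0.16 without the covariate (unadjusted p 0.485). Within numbers 2 to 5 its log2 difference was 0.18, −0.16, 0.74 and −0.093, so number 4 carried most of it. Rny1 also passed with no filter on low counts (edgeR adjusted p 1.15e-06).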
